A study of Homo sapiens with 12 samples.

Results

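The genes described here encode the machinery that moves proteins between the endoplasmic reticulum (ER) and the Golgi apparatus. They are 57 of the 56140 gene symbols measured in 143B, an established human cell line from an osteosarcoma. The list holds 11 genes of the COPI coat and its ARF GTPases, 12 of the COPII coat, 8 p24 receptors (TMED genes), 3 KDEL receptors, 8 YIF and YIPF proteins, 6 cargo receptors and proteins of the ER-Golgi intermediate compartment (ERGIC), 8 SNAREs with the tether USO1 among them, and the transcription factor CREB3. The genes were picked by name for their function and were chosen for their higher values in cells given both drugs, so their values in that group describe the choice and test nothing. The choice used the combination against DMSO; the other contrasts that hold the combination libraries are likewise given as descriptions.

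RNA was sequenced after 48 h in 4 groups of 3 biological replicates each: a combination of 1.0 µM ceritinib with 1.0 µM crenolanib, 1.0 µM ceritinib alone, 1.0 µM crenolanib alone, and DMSO, the solvent. Ceritinib is an inhibitor of the kinase ALK and crenolanib of the kinases PDGFR and FLT3. Cells were wild-type 143B, plated at 2000000 per 10-cm dish in medium with serum on the day before treatment, and libraries were strand-specific. The values were read as FPKM, a unit scaled to transcript length and to library size, so levels of different genes are set side by side. In the combination libraries the values also followed transcript GC content and length, which limits such comparisons between genes.

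Cargo leaves the ER in vesicles with a COPII coat, which the GTPase SAR1 assembles from an inner layer (SEC23 with SEC24) and an outer layer (SEC13 with SEC31). It passes the ERGIC and fuses with Golgi membranes through SNARE proteins. Escaped ER proteins and empty receptors return in vesicles with a COPI coat, a coatomer of 7 subunits recruited by ARF GTPases. Bone cells and the tumours derived from them use this route to secrete collagen and other matrix proteins.

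Read depth was estimated from the most frequent low value, scaled by transcript length, on the assumption that it stands for 1 fragment. It was 19.7 to 22.2 M fragments in the combination libraries and 22.7 to 28.3 M in the other 9. In the combination 10284 to 10358 genes reached 1 FPKM, against 11220 to 11464 in the other 9 libraries. Mitochondrially encoded genes took 19.1 to 21.7% of all FPKM in the combination and 22.9 to 29.8% in the other 9. Pearson correlations across genes were 0.995 to 0.996 within groups, 0.884 to 0.912 between the combination and any other library, and 0.985 to 0.991 among the other groups. The 3 combination libraries also differed from the rest by transcript composition: the rank correlation of a library's deviation with transcript GC content was 0.636 to 0.672 there and -0.149 to 0.204 in the other 9. The labels' extraction text speaks of a thymic sample. FOXN1, a thymus factor, was listed at 0 in all 12 libraries and PTPRC, a leukocyte gene, reached at most 0.004 FPKM. Of the T cell genes, CD3E, CD4 and CD8A reached at most 0.042 FPKM, while CD3D was above 0 in all 12 libraries, at 0.129 to 0.988. Among markers of other cells, the myeloid gene CD68 stood at 19.6 to 37.0 FPKM and the epithelial gene EPCAM at 0.781 to 2.133. The mesenchymal gene VIM stood at 401 to 492 FPKM and SPARC at 47.7 to 82.5, while of the bone genes COL1A1 stayed at or under 0.932 FPKM and SP7 was listed at 0 in 10 libraries.

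Summed over the 57 genes, the FPKM was 1964 ± 10.7 in the combination, 1144 ± 4.36 with ceritinib, 1139 ± 7.55 with crenolanib and 1084 ± 3.61 in DMSO (SD, n = 3 each). These sums were 0.714% of all FPKM in the combination, 0.440% with ceritinib, 0.455% with crenolanib and 0.439% in DMSO. The 3 combination libraries lay above all 9 others, and the single-drug sums lay above DMSO by far less than the combination did. COPZ2 stayed near 0.1 FPKM in every group and was left out of the fits, which leaves 56 genes. In the combination against DMSO, 34 of them were higher and 18 lower at an adjusted p under 0.05, beside 36.8% and 50.9% of all 11944 genes tested. Their median log2 change was 0.36, and that of all genes tested was -0.16. By 2-fold or more, 20 of the 56 were higher and 3 lower, beside 6.54% and 14.4% of all genes. All 3 combination libraries lay above all 9 others for 32 of the genes and below them for 16, beside 31.8% and 45.5% of all genes. Against ceritinib 33 were higher and 18 lower (35.9% and 51.3% of all genes), and against crenolanib 34 were higher and 16 lower (37.4% and 50.1% of all genes). The interaction sets the change in the combination against the changes of both single drugs added up, on the log2 scale. There 32 were higher and 17 lower, beside 33.8% and 47.7% of all genes.

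**Figure D1:**
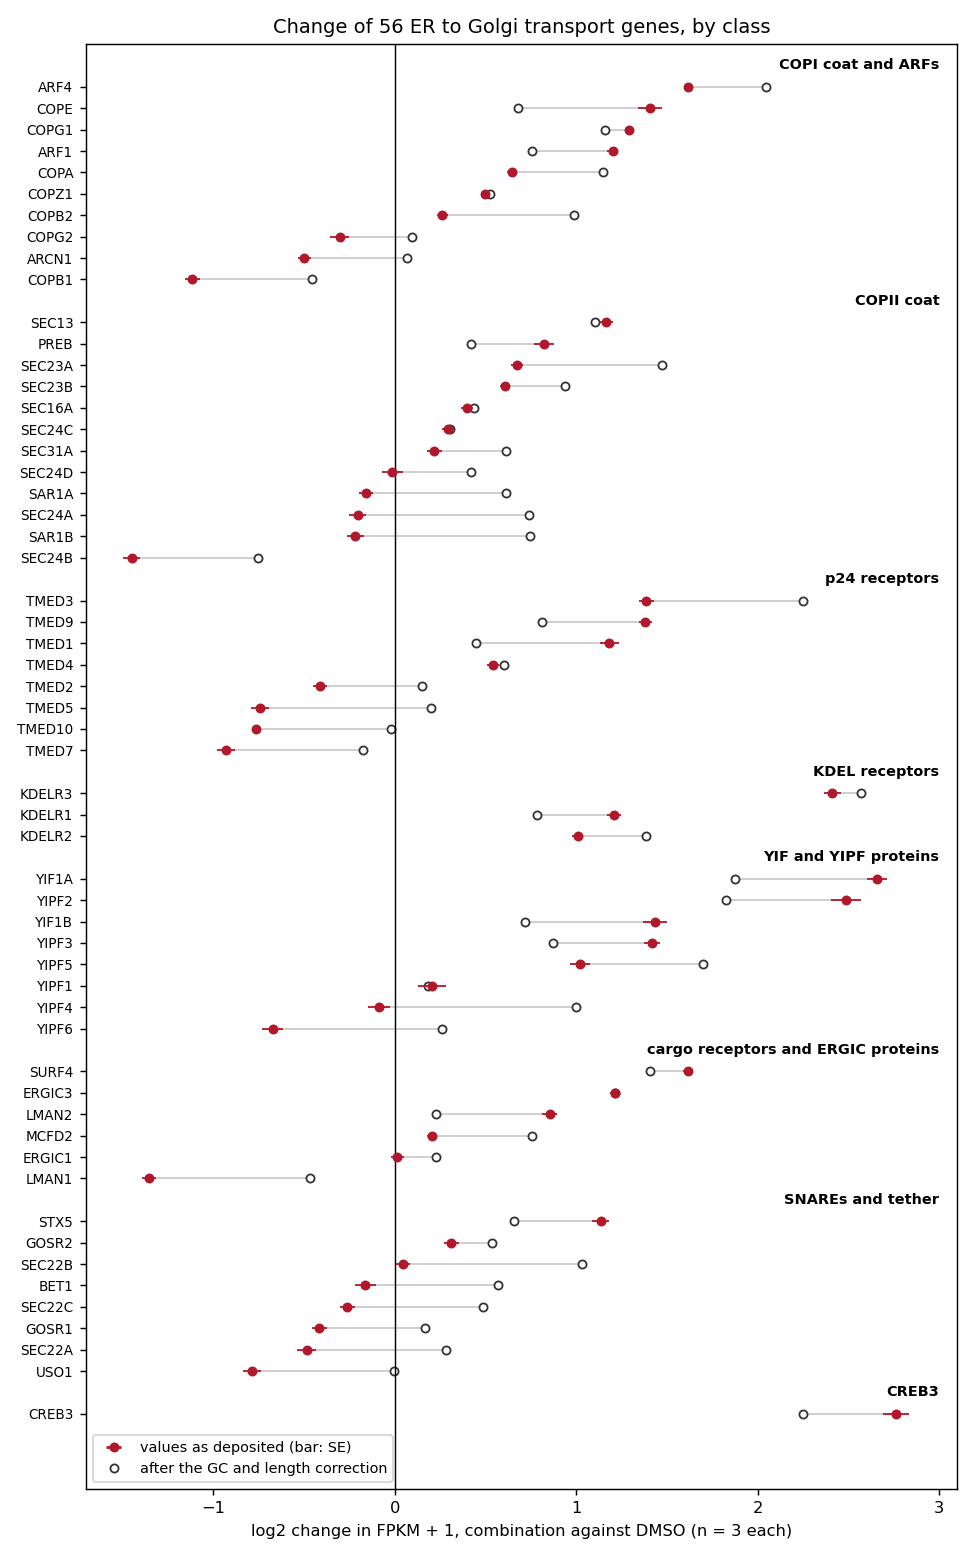
Each row is 1 gene. Filled points give its log2 change in FPKM + 1, combination against DMSO (n = 3 each, bars SE); open points give it after removal of the trend with GC content and transcript length. CREB3 at 2.76, YIF1A at 2.66, YIPF2 at 2.49 and KDELR3 at 2.41 lie farthest to the right as deposited, and SEC24B at -1.45, LMAN1 at -1.35 and COPB1 at -1.11 farthest to the left.

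These changes moved with the composition of the transcripts. Across the 56 genes the rank correlation of the change with GC content was 0.678 and with transcript length -0.646; over all genes these were 0.654 and -0.384. The genes share libraries, so these values are descriptions. Of the 28 genes at or above a GC content of 45.56%, 27 had a positive change, beside 61.6% of all genes in that range. Their median was 1.15, while over all genes in that range it was 0.20. Of the 28 below 45.56%, 9 had a positive change, beside 13.4% of all genes in that range. Their median was -0.21, against -0.73 over all genes in that range. When the trend with GC and length was removed from each library, 49 of the 56 were higher and 4 lower (39.5% and 40.8% of all genes), and the median was 0.64. The 4 genes still lower were COPB1, SEC24B, TMED7 and LMAN1. Whether the trend came from the cells or from the RNA and libraries was not tested.

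**Figure D2:**
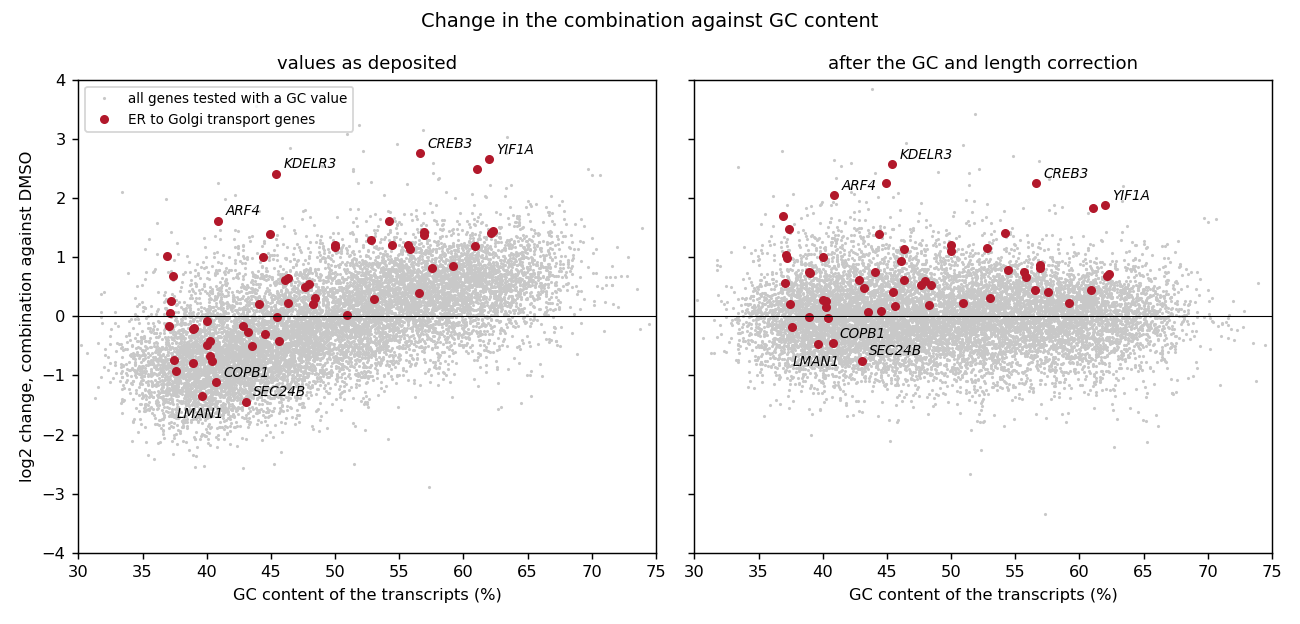
The x axis is transcript GC content in percent and the y axis the log2 change, combination against DMSO. Grey dots are the genes tested that have a GC value, and red dots are the 56 transport genes; in the left panel 8 genes lie outside the axes. As deposited (left) the change climbs with GC in both sets. After the correction (right) 50 of the 56 transport genes lie above 0, beside 5771 of all 11761 genes.

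A feature that the choice did not use is the promoter sequence. In RefSeq promoters (250 bases before to 50 after the first listed start, build GRCh38.p14), which 50 of the 57 genes had, the letters TGACGTGG occurred on either strand in 9 (18%), against 1.04% of the 8634 tested genes with a promoter and 0.79% of all 27305. These letters match the unfolded protein response element that ATF6 and XBP1 bind. The 9 genes were ARF1, COPA, COPB1, COPB2, KDELR3, SEC16A, SEC23A, SEC24A and STX5. The shorter ACGTG, which TGACGTGG contains, occurred in 64.0% of the 50 against 27.92% of tested genes, and CCACG, which it contains on its other strand, in 84.0% against 51.15%. The GC box GGGCGG occurred in 70.0% against 72.71%. The ER stress response element (ERSE) was in none of the 50 and in 0.14% of tested genes, and TGACGTCA, the cyclic AMP response element, in none and in 3.49%. Genes with the same letters had changes in both directions. The 60-base windows below run 5′ to 3′ on the gene's strand, with the motif in capitals. They show each occurrence that lies wholly before the listed start, which 6 genes have. In COPA and SEC16A the motif lies after the start and in SEC23A it spans the start. COPB2 has a second occurrence after the start, which is not shown. CCACGTCA is TGACGTGG read on the other strand.
KDELR3, chr22:38468024-38468083, + strand, change 2.41: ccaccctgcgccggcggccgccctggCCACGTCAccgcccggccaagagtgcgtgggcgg
ARF1, chr1:228082648-228082707, + strand, change 1.20: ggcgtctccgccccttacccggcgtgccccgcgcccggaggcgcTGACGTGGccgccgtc
STX5, chr11:62832052-62832111, - strand, change 1.13: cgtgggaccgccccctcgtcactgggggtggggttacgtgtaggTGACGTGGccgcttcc
COPB2, chr3:139389810-139389869, - strand, change 0.26: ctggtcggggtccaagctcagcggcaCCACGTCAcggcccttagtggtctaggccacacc
SEC24A, chr5:134648580-134648639, + strand, change -0.20: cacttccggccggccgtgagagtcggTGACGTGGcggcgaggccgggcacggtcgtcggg
COPB1, chr11:14499826-14499885, - strand, change -1.11: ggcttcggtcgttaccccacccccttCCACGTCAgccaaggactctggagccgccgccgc
The motif lies 16 to 9 bases before the listed RefSeq start in ARF1 and STX5, 46 to 39 in KDELR3 and 48 to 41 in COPB1. It lies 163 to 156 bases before it in COPB2 and 179 to 172 in SEC24A. By the GENCODE positions used for the genes, the motifs of ARF1, STX5 and COPB1 lie inside the gene. Those of KDELR3, COPB2 and SEC24A lie before it. The median change, combination against DMSO, was 0.65 over the 9 genes with TGACGTGG and 0.26 over the 40 tested genes whose promoter lacks it. After the GC and length correction these were 0.76 and 0.59. The choice of genes used this contrast, so these medians test nothing. ARF4, ERGIC1, KDELR2, SEC24D, TMED4, TMED9 and USO1 had no promoter and are in neither group. Their changes ran from -0.79 (USO1) to 1.62 (ARF4). A match in these letters is a description and shows no binding.

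CREB3 (chr9:35732335-35737004, hg38) encodes a transcription factor held in the ER membrane and released by cleavage in the Golgi; it is known to act upstream of ARF4 when the Golgi is stressed. It had 86.5, 83.1 and 86.5 FPKM in the combination, 14.1, 14.4 and 12.6 with ceritinib, 16.5, 16.1 and 13.7 with crenolanib, and 12.4, 10.8 and 12.1 in DMSO. The combination stood apart, and the other 9 libraries all lay between 10.8 and 16.5 FPKM. The mean was 7.26 times that of DMSO, a log2 change of 2.76 ± 0.070 (SE), the highest of the 56, and of 2.25 after the GC and length correction. In the interaction its log2 value was 2.19. The single drugs, which share the DMSO libraries with the contrast used to choose the genes, gave smaller changes: CREB3 rose by 0.37 with crenolanib (limma adjusted p = 0.00264) and by 0.21 with ceritinib (adjusted p = 0.0363, 0.0137 to 0.141 over 20 alternatives). The gene shares exon bases with GBA2 and TLN1 on the opposite strand, and whether the authors' counting used the strand is not given in the sources used here.

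**Figure D3:**
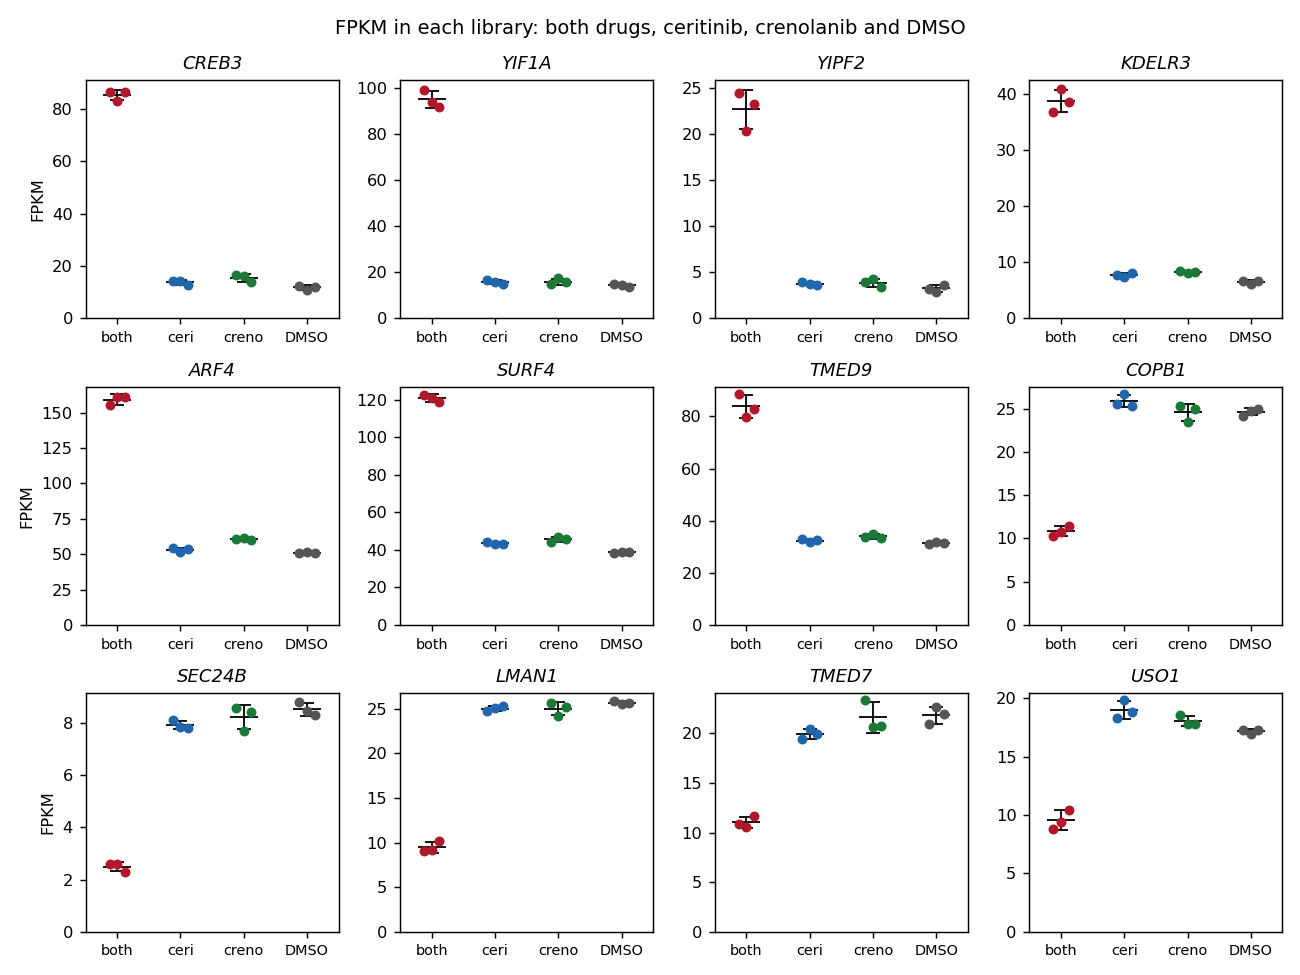
FPKM (y axis, from 0) of 12 genes in each library, with the mean and SD of each group as black bars. The groups run left to right as both drugs, ceritinib (ceri), crenolanib (creno) and DMSO. CREB3, YIF1A, YIPF2, KDELR3, ARF4, SURF4 and TMED9 stand above the other 9 libraries in the combination, and COPB1, SEC24B, LMAN1, TMED7 and USO1 below them.

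The YIF and YIPF proteins span Golgi and ERGIC membranes; YIF1A and YIF1B partner with YIPF members and the YIF1 family takes part in ER to Golgi transport. Of 8 genes, 6 were higher in the combination than in DMSO, 1 was lower and 1 did not pass. Over all genes 36.8% were higher and 50.9% lower. The median of the 8 was 1.22 (0.94 after the correction). YIF1A (chr11:66284580-66289170), the most abundant, had 99.3, 94.1 and 92.0 FPKM in the combination, 16.4, 15.9 and 14.7 with ceritinib, 14.8, 17.3 and 15.7 with crenolanib, and 14.7, 14.3 and 13.8 in DMSO. The other 9 libraries all lay between 13.8 and 17.3 FPKM, and the combination far above. Its mean was 6.68 times that of DMSO, and its share of the 2 YIF1 genes was 86.5% ± 0.58 in the combination, 76.3% ± 0.52 with ceritinib, 75.1% ± 0.82 with crenolanib and 74.6% ± 0.98 in DMSO. YIF1B averaged 14.8 ± 0.867 FPKM in the combination and 4.85 ± 0.108 in DMSO, a log2 change of 1.43 that became 0.72 after the correction. YIPF2 (chr19:10922185-10928681) had 24.5, 20.4 and 23.3 FPKM in the combination and 3.22, 2.86 and 3.63 in DMSO, 7.03 times as much; after the correction the change of YIF1A, 2.66, became 1.87 and that of YIPF2, 2.49, became 1.83. It shares 886 exon bases with CARM1 on the opposite strand. YIPF3, YIPF5 and YIPF1 changed by 1.42, 1.02 and 0.20 (0.87, 1.70 and 0.19 after the correction), and for YIPF1 the combination and DMSO libraries overlapped. YIPF6 was lower, with 2.72, 3.08 and 3.23 FPKM in the combination and 4.87, 5.64 and 5.66 in DMSO; after the correction its change of -0.67 became 0.26. YIPF4 had a change of -0.09 and did not pass. With either single drug, none of the 8 passed in limma. Their changes were -0.05 to 0.17 with ceritinib, where 3 were higher at an unadjusted p under 0.05, and -0.01 to 0.19 with crenolanib, where 2 were. At that unadjusted p 3030 of all 11944 genes were higher with ceritinib and 2214 with crenolanib. After the GC and length correction 2 of the 8 passed as higher with each drug. Over all 11761 genes 2402 then passed as higher with ceritinib and 1836 with crenolanib.

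KDEL receptors bind the KDEL signal of escaped ER chaperones in the Golgi and return them in COPI vesicles. All 3 were higher in the combination, beside 36.8% of all genes, with a median of 1.21 (1.39 after the correction). KDELR3 (chr22:38468062-38483447) had 36.9, 40.9 and 38.6 FPKM in the combination, 7.73, 7.35 and 8.10 with ceritinib, 8.51, 8.16 and 8.23 with crenolanib, and 6.69, 6.09 and 6.66 in DMSO. No groups overlapped, though both single drugs lay close to each other and to DMSO. KDELR3 made up 17.0% ± 0.53 of the FPKM of the 3 receptors in the combination, 7.4% ± 0.3 with ceritinib, 8.0% ± 0.21 with crenolanib and 7.0% ± 0.37 in DMSO. KDELR1 had 96.0, 101 and 93.6 FPKM in the combination and 41.8, 41.6 and 40.7 in DMSO, a log2 change of 1.21 (0.78 after the correction). KDELR2, the most abundant over all libraries, had 89.6, 89.7 and 96.4 FPKM in the combination and 46.2, 45.2 and 44.3 in DMSO, a change of 1.01 (1.39 after the correction). It shares 376 exon bases with DAGLB on the same strand, and such reads could go to either gene. With single drugs all 3 were called higher under ceritinib and 2 under crenolanib, beside 20.3% and 13.0% of all genes. KDELR3 rose by 0.22 with ceritinib (limma adjusted p = 0.00282) and by 0.32 with crenolanib (adjusted p = 0.000494). KDELR2 rose by 0.17 with ceritinib (adjusted p = 0.00145) and by 0.21 with crenolanib (adjusted p = 0.000652). KDELR1 rose by 0.13 with ceritinib (adjusted p = 0.0157). On a TPM scale the ceritinib calls of KDELR1 (adjusted p = 0.199) and KDELR2 (adjusted p = 0.0559) were lost.

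The COPI genes did not move as a unit. Of 10 tested, 7 were higher and 3 lower in the combination, beside 36.8% and 50.9% of all genes. Their median was 0.57 (0.72 after the correction). The GTPase ARF4 (chr3:57571363-57598220), with the highest change of the class, had 155, 161 and 161 FPKM in the combination, 54.2, 51.7 and 53.3 with ceritinib, 60.4, 61.6 and 60.2 with crenolanib, and 51.2, 51.7 and 50.6 in DMSO. ARF1 (chr1:228082660-228099212), the other GTPase and the most abundant of the class, had 167, 165 and 161 FPKM in the combination, 80.3, 78.8 and 79.3 with ceritinib, 80.5, 85.1 and 84.6 with crenolanib, and 69.4, 69.6 and 74.0 in DMSO. Each was higher in the combination than in any other library, and ARF4 took 49.2% ± 0.97 of the sum of both there, 40.0% ± 0.37 with ceritinib, 42.1% ± 0.67 with crenolanib and 41.9% ± 1.12 in DMSO. Both GTPases have processed pseudogenes (3 named for ARF1 and 4 for ARF4 in GENCODE release 29), and how the authors placed reads that fit several loci is not given in the sources used here. ARF4 is a low-GC gene (40.9%), and its change of 1.62 became 2.05 after the correction, while that of ARF1, a gene of higher GC (55.7%), was 1.20 as deposited and 0.76 after it.

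The 7 coatomer subunits form a complex in equal copies, and their levels spread apart. The ratio of the highest to the lowest subunit, with paralogues summed, was 7.33 ± 0.37 in the combination, 2.63 ± 0.25 with ceritinib, 2.44 ± 0.25 with crenolanib and 2.56 ± 0.17 in DMSO (SD, n = 3 each). For the 5 subunits of the COPII coat the same ratio was 4.51 ± 0.27 in the combination and 4.34 ± 0.07 in DMSO. It was 3.95 ± 0.18 with ceritinib and 3.71 ± 0.05 with crenolanib. All these ratios use the values as deposited, without the GC and length correction. In the coatomer, gamma (COPG1 with COPG2) was highest in all 3 combination libraries and beta (COPB1) lowest. In the other 9 libraries delta (ARCN1) was highest and epsilon (COPE) lowest. The GC content of COPG1 is 52.83% and that of COPB1 40.76%. COPG1 had 71.9, 70.7 and 71.7 FPKM in the combination, 28.97, 28.96 and 28.7 with ceritinib, 28.4, 28.5 and 28.6 with crenolanib, and 29.02, 28.4 and 28.5 in DMSO. Its paralogue COPG2 averaged 8.004 ± 0.477 FPKM in the combination and 10.1 ± 0.127 in DMSO, so COPG1 made up 89.9% ± 0.61 of the gamma subunit in the combination and 73.9% ± 0.1 in DMSO. COPB1 (chr11:14443440-14500027) had 10.3, 10.8 and 11.5 FPKM in the combination, 25.6, 26.7 and 25.4 with ceritinib, 25.3, 23.4 and 24.9 with crenolanib, and 24.2, 24.8 and 24.9 in DMSO. It lay below every other library in the combination, at 0.441 times the DMSO mean, and remained lower after the correction (-0.46). COPE averaged 48.5 ± 3.03 FPKM in the combination and 17.7 ± 1.08 in DMSO, a change of 1.41 that became 0.68 after the correction. The zeta subunit COPZ1, alpha COPA and beta-prime COPB2 changed by 0.50, 0.65 and 0.26 (0.53, 1.15 and 0.99 after the correction), and all 3 combination libraries lay above the other 9 for each. ARCN1 averaged 31.7 ± 1.5 FPKM in the combination and 45.0 ± 0.550 in DMSO; its change of -0.50 became 0.07 after the correction, and that of COPG2, -0.30, became 0.09. COPB1 and COPE each share exon bases (407 and 264) with another gene on the same strand.

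**Figure D4:**
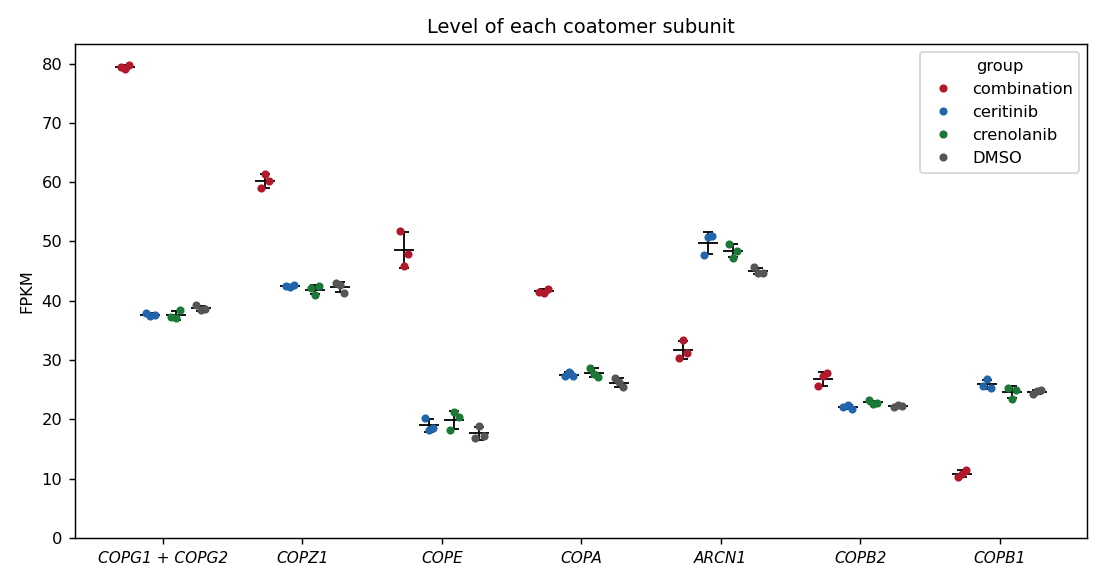
FPKM (y axis, from 0) of the 7 coatomer subunits in each library, with group means and SD as black bars and groups coloured as in the legend. The combination spreads the subunits over 10.3 to 79.8 FPKM, while delta (ARCN1) heads the order in the other 9 libraries at 44.7 to 50.9 FPKM.

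With single drugs, ARF1 rose by 0.16 with ceritinib (limma adjusted p = 0.00167) and by 0.23 with crenolanib (adjusted p = 0.000275), and ARF4 rose by 0.24 with crenolanib (adjusted p = 4.64e-05). COPG1, whose FPKM was 2.5 times the DMSO mean in the combination, had changes of 0.01 with ceritinib and -0.01 with crenolanib that did not pass. COPG2 fell by 0.19 with ceritinib (adjusted p = 0.0134, 0.0029 to 0.0529 over 20 alternatives). The coat's COPB1 had changes of 0.07 and -0.01, which did not pass either.

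In the COPII coat 7 of 12 genes were higher in the combination, 4 were lower and 1 did not pass. Over all genes 36.8% were higher and 50.9% lower. The median of the 12 was 0.26 (0.61 after the correction). SEC13, of the outer layer, led with 51.1, 48.7 and 48.7 FPKM in the combination, 22.2, 21.8 and 20.6 with ceritinib, 20.5, 21.7 and 21.6 with crenolanib, and 21.7, 21.9 and 21.0 in DMSO. Its outer-layer partner SEC31A averaged 11.3 ± 0.641 FPKM in the combination and 9.54 ± 0.320 in DMSO, a log2 change of 0.22 (0.61 after the correction). PREB, the exchange factor that loads SAR1 with GTP, averaged 23.6 ± 0.900 FPKM in the combination and 12.9 ± 0.973 in DMSO (0.82, and 0.42 after the correction), and SEC16A, the scaffold of ER exit sites, averaged 15.4 ± 0.251 in the combination and 11.4 ± 0.267 in DMSO (0.40). SAR1A and SAR1B, the GTPases themselves, had changes of -0.16 and -0.22, which became 0.61 and 0.75 after the correction. Both SEC23 genes were higher: SEC23A averaged 19.6 ± 0.724 FPKM in the combination and 11.9 ± 0.309 in DMSO, and SEC23B averaged 30.4 ± 0.867 in the combination and 19.6 ± 0.144 in DMSO. Their changes of 0.67 and 0.61 became 1.47 and 0.94 after the correction.

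The 4 SEC24 genes, which read the sorting signals of cargo, went different ways. SEC24C, the most abundant, had 33.9, 32.3 and 32.2 FPKM in the combination, 28.7, 28.7 and 27.7 with ceritinib, 26.6, 26.7 and 26.6 with crenolanib, and 27.8, 26.4 and 25.7 in DMSO. SEC24B (chr4:109433772-109540896) had 2.58, 2.59 and 2.30 FPKM in the combination, 8.09, 7.82 and 7.81 with ceritinib, 8.57, 7.70 and 8.40 with crenolanib, and 8.80, 8.45 and 8.30 in DMSO. It was thus at 0.292 times the DMSO mean, with a log2 change of -1.45 ± 0.046 (SE), the lowest of the 56, and -0.75 after the correction. SEC24A changed by -0.20, which became 0.74 after the correction, and SEC24D had a value of -0.01, which did not pass. In shares of the 4 genes' FPKM, SEC24C took 80.1% ± 1.27 in the combination, 66.0% ± 0.25 with ceritinib, 63.7% ± 0.76 with crenolanib and 64.3% ± 0.74 in DMSO, while SEC24B took 6.1% ± 0.33 in the combination, 18.4% ± 0.29 with ceritinib, 19.7% ± 0.92 with crenolanib and 20.6% ± 0.05 in DMSO. SEC24C shares 2293 exon bases with AC022400.8 on the opposite strand.

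With single drugs SEC23B rose by 0.21 with ceritinib (limma adjusted p = 0.000126) and had a change of 0.01 with crenolanib, while SEC23A had changes of -0.03 and 0.02 that did not pass. SEC24A rose by 0.19 with ceritinib (adjusted p = 0.00729) and by 0.14 with crenolanib (adjusted p = 0.0493, 0.0247 to 0.183 over 20 alternatives). SEC16A rose by 0.14 with ceritinib (adjusted p = 0.00706) and by 0.20 with crenolanib (adjusted p = 0.00153), and SEC31A by 0.17 with ceritinib (adjusted p = 0.00587) and by 0.22 with crenolanib (adjusted p = 0.00242). On a TPM scale the ceritinib calls of SEC16A (adjusted p = 0.121) and SEC31A (adjusted p = 0.0532) were lost. SEC13, at 2.30 times the DMSO mean in the combination, had changes of 0.00 and -0.02.

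The p24 receptors cycle between ER and Golgi in both kinds of vesicle and select cargo such as GPI-anchored proteins. In the combination 4 were higher and 4 lower, beside 36.8% and 50.9% of all genes. Their median was 0.07 (0.32 after the correction, -0.08 on a TPM scale). TMED9 had 88.6, 79.8 and 83.0 FPKM in the combination, 32.8, 31.9 and 32.5 with ceritinib, 33.6, 35.1 and 33.4 with crenolanib, and 31.1, 32.0 and 31.5 in DMSO. TMED3 had 9.34, 8.72 and 8.38 FPKM in the combination and 2.81, 2.78 and 2.66 in DMSO, a change of 1.39. Its corrected change of 2.25 rests on an annotated transcript of 16555 bases, the longest of the 56 genes. TMED1 changed by 1.18 and TMED4 by 0.54, and after the correction TMED1 stood at 0.45, TMED4 at 0.60 and TMED9, which changed by 1.38, at 0.81. TMED7 had 10.9, 10.5 and 11.6 FPKM in the combination, 19.4, 20.4 and 19.9 with ceritinib, 23.4, 20.7 and 20.8 with crenolanib, and 20.9, 22.6 and 22.0 in DMSO, a change of -0.93. It shares 935 exon bases with the readthrough gene TMED7-TICAM2 on the same strand. TMED10, TMED5 and TMED2 changed by -0.76, -0.74 and -0.41, of which only that of TMED10 was still negative after the correction, at -0.02. The family's composition differed accordingly: TMED9 made up 40.1% ± 1.48 of its FPKM in the combination, 18.2% ± 0.21 with ceritinib, 19.0% ± 0.63 with crenolanib and 18% ± 0.19 in DMSO. TMED10, whose product pairs with that of TMED2, made up 12.6% ± 0.43 in the combination, 23.7% ± 0.06 with ceritinib, 23.8% ± 0.1 with crenolanib and 25.9% ± 0.29 in DMSO. With ceritinib 3 of the 8 were higher and 2 lower, beside 20.3% and 16.3% of all genes. TMED4 rose by 0.23 (limma adjusted p = 0.000258), and TMED2 and TMED3 rose by 0.13 each. TMED10 fell by 0.10 (adjusted p = 0.00646), and TMED1 changed by -0.16. With crenolanib 3 were higher and 1 lower, beside 13.0% and 13.0% of all genes. TMED2, TMED3 and TMED9 rose by 0.12, 0.14 and 0.11. TMED10 fell by 0.09 with crenolanib (adjusted p = 0.0222, 0.00837 to 0.0894 over 20 alternatives), and TMED4 had a change of -0.03 that did not pass. The single-drug calls of TMED1, TMED2, TMED3 and TMED9 were each lost under at least 3 alternatives.

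Among the 6 cargo receptors and ERGIC proteins 4 were higher, 1 was lower and 1 did not pass in the combination. Over all genes 36.8% were higher and 50.9% lower. The median of the 6 was 0.53 (0.49 after the correction). SURF4 (chr9:133361449-133376166), a receptor for many secreted proteins, had 123, 121 and 119 FPKM in the combination, 44.1, 43.3 and 43.3 with ceritinib, 44.3, 47.1 and 45.7 with crenolanib, and 38.3, 39.1 and 39.0 in DMSO. All 3 combination values lay far above any other. LMAN1 (chr18:59327823-59359962), a lectin that carries coagulation factors, had 9.02, 9.17 and 10.2 FPKM in the combination, 24.7, 25.02 and 25.3 with ceritinib, 25.6, 24.2 and 25.2 with crenolanib, and 25.9, 25.6 and 25.6 in DMSO. MCFD2 (chr2:46901870-46941855), the soluble partner of LMAN1 in that receptor, had 64.0, 64.6 and 66.3 FPKM in the combination, 59.6, 62.8 and 62.5 with ceritinib, 50.8, 49.4 and 49.3 with crenolanib, and 56.2, 55.7 and 56.8 in DMSO. The pair thus parted in the combination, with log2 changes of -1.35 for LMAN1 and 0.21 for MCFD2 (-0.47 and 0.76 after the correction). LMAN2, a relative of LMAN1, and ERGIC3 changed by 0.85 and 1.21 (0.23 and 1.21 after the correction), while ERGIC1 had a value of 0.01 and did not pass. With single drugs SURF4 rose by 0.16 with ceritinib (limma adjusted p = 0.000486) and by 0.23 with crenolanib (adjusted p = 7.74e-05), and ERGIC3 rose by 0.16 with ceritinib (adjusted p = 0.000371) and by 0.08 with crenolanib (adjusted p = 0.047, 0.0213 to 0.15 over 20 alternatives).

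The SNAREs, which fuse vesicles with their target, and USO1, the tether p115 that captures them, were mixed. Of 8, 2 were higher, 5 lower and 1 did not pass in the combination, near the 36.8% and 50.9% of all genes. Their median was -0.21, against -0.16 over all genes, and 0.51 after the correction, where 7 of the 8 were higher (39.5% of all genes). STX5, the Golgi syntaxin, had 24.7, 23.1 and 22.6 FPKM in the combination, 10.7, 10.7 and 9.40 with ceritinib, 10.2, 10.4 and 10.3 with crenolanib, and 9.90, 10.4 and 10.1 in DMSO. USO1 had 8.83, 9.42 and 10.5 FPKM in the combination, 18.3, 19.9 and 18.8 with ceritinib, 18.6, 17.8 and 17.8 with crenolanib, and 17.3, 16.9 and 17.3 in DMSO. STX5 changed by 1.13. Among SNAREs that act with it in membrane fusion, GOSR2 changed by 0.31, GOSR1 by -0.42, BET1 by -0.16, and SEC22B had a value of 0.05 that did not pass. SEC22A and SEC22C changed by -0.49 and -0.26. After the correction STX5 stood at 0.66, SEC22B at 1.03, BET1 at 0.57, GOSR2 at 0.54, SEC22C at 0.48, SEC22A at 0.28 and GOSR1 at 0.17, and USO1 at -0.01. With ceritinib SEC22B rose by 0.24 (limma adjusted p = 0.000618).

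Over the whole list, ceritinib against DMSO gave 20 higher and 3 lower of 56, beside 20.3% and 16.3% of all genes, and crenolanib against DMSO gave 14 higher and 3 lower, beside 13.0% and 13.0%. Both comparisons share the DMSO libraries with the contrast used to choose the genes. No change exceeded 0.37 in size, and the medians were 0.07 and 0.05. The balance of the ceritinib calls depended on scaling: with FPKM scaled to a fixed sum (TPM), 8 were higher and 8 lower (11.2% and 25% of all genes), and crenolanib gave 9 higher and 4 lower (10.3% and 14.0% of all genes). Without DMSO replicate 3, crenolanib gave 8 higher; without DMSO replicate 1 it gave 1 lower, and without ceritinib replicate 2 ceritinib gave 1 lower. Calls kept under all 20 alternatives numbered 8 higher with ceritinib (ARF1, ERGIC3, KDELR3, SEC22B, SEC23B, SEC24A, SURF4 and TMED4) and 8 higher with crenolanib (ARF1, ARF4, CREB3, KDELR2, KDELR3, SEC16A, SEC31A and SURF4). Those kept as lower were TMED10 with ceritinib and MCFD2 with crenolanib. For the kept calls and for the counts without a library, no share over all genes is given beside them.

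Ceritinib against crenolanib shares no library with the contrast that chose the genes, and there 7 of 56 were higher and 5 lower, beside 19.4% and 15.4% of all genes. The median change was -0.01, against 0.02 over all genes. MCFD2 differed most, by 0.30 ± 0.027 (SE; limma adjusted p = 5.22e-06), and its 3 ceritinib libraries lay above all 3 crenolanib libraries; against DMSO it rose by 0.13 with ceritinib (adjusted p = 0.00257, 0.139 on a TPM scale) and fell by 0.17 with crenolanib (adjusted p = 0.000702). TMED4 averaged 19.2 ± 0.477 FPKM with ceritinib and 15.9 ± 0.552 with crenolanib (0.26, adjusted p = 0.000111), ERGIC1 15.0 ± 0.739 with ceritinib and 12.9 ± 0.272 with crenolanib (0.20, adjusted p = 0.00114), and SEC23B 22.8 ± 0.485 with ceritinib and 19.7 ± 0.318 with crenolanib (0.20, adjusted p = 0.000218). In the other direction ARF4 averaged 53.1 ± 1.28 FPKM with ceritinib and 60.7 ± 0.750 with crenolanib (-0.19, adjusted p = 0.000154), and TMED1 7.09 ± 0.400 with ceritinib and 8.39 ± 0.318 with crenolanib (-0.22, adjusted p = 0.00802). These 6 calls were kept under all 20 alternatives. SEC22B, SEC24C and ERGIC3 were also called higher and SEC24D, GOSR2 and GOSR1 lower, with changes of 0.09 to 0.15 and -0.17 to -0.13, each lost under at least 2 alternatives. CREB3 had a change of -0.16 and did not pass. The counts moved with scaling, to 4 higher and 15 lower on a TPM scale (12% and 21.3% of all genes) and 9 higher and 13 lower after the GC and length correction (18.2% and 19.7% of all genes). There were 4 higher without ceritinib replicate 3 and 2 lower without ceritinib replicate 2 or 3.

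**Figure D5:**
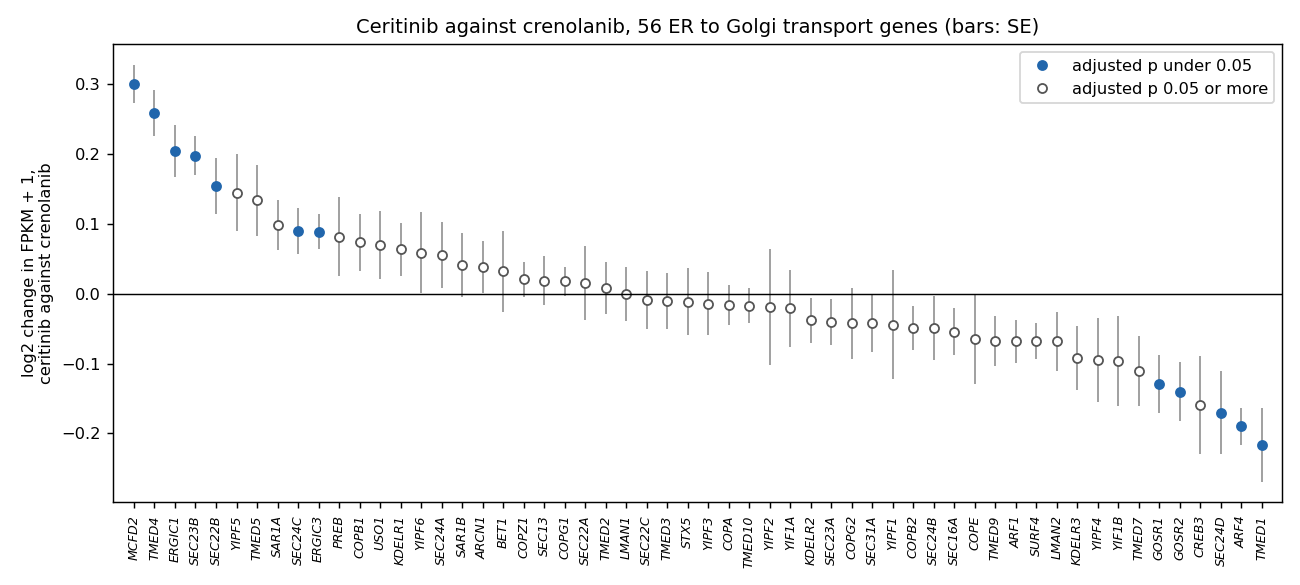
Log2 change in FPKM + 1 (y axis, bars SE, n = 3 each) of the 56 genes, ceritinib against crenolanib, ordered by size. Filled points passed an adjusted p of 0.05: 7 lie above 0, led by MCFD2 at 0.30, and 5 below, ending with TMED1 at -0.22.

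Other genes of the route, listed by function, were set beside these. Of 14 tested genes of COPII cargo export and ER exit, 7 were higher and 7 lower in the combination than in DMSO (36.8% and 50.9% of all genes), with a median of 0.14. After the correction 10 were higher and 1 lower of 13 (39.5% and 40.8% of all genes), with a median of 0.38. MIA3, which helps export procollagen, averaged 1.12 FPKM in the combination and 3.26 in DMSO (-1.01, and -0.05 after the correction, which did not pass), and the p24 relative TMED8 averaged 2.41 in the combination and 10.2 in DMSO (-1.72, and -0.88 after the correction). Of 49 tested SNAREs, tethers, Rabs and ARF regulators, 21 were higher and 22 lower (36.8% and 50.9% of all genes), with a median of 0.01, and after the correction 30 were higher and 10 lower (39.5% and 40.8%), with a median of 0.16. TRAPPC6A, of the TRAPP tethering complex, averaged 21.6 FPKM in the combination, 4.66 with ceritinib, 2.70 with crenolanib and 2.32 in DMSO, a log2 change of 2.77 (1.95 after the correction). It was higher with ceritinib than with crenolanib as well (0.62, limma adjusted p = 2.6e-05). ARFGAP1, which switches ARF1 off, changed by 1.25 (0.72 after the correction), the SNARE YKT6 by 1.20 (0.88), and RINT1, which takes part in tethering at the ER, by -1.36 (-0.80). Of 7 tested genes of the CREB3 and ATF6 family with their proteases and XBP1, 4 were higher and 3 lower (36.8% and 50.9% of all genes). Their median was 0.25. After the correction 5 were higher and 1 lower (39.5% and 40.8% of all genes), with a median of 0.36. CREB3L2, a relative of CREB3, averaged 2.51 FPKM in the combination and 5.32 in DMSO (-0.85, and -0.37 after the correction), ATF6B changed by 0.86 (0.40) and XBP1 by 0.55 (1.02).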

How the data were processed

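RNA of 12 libraries was sequenced. The authors used FastQC 0.11.2, STAR for alignment and StringTie for quantification against hg38, per the submitters' processing notes. Versions of STAR and StringTie, gene annotation and filters are not stated in the labels. For each library the authors deposited 1 FPKM value per gene symbol; no header names the unit, which was read from the values. An entry with no gene name was left out. The 11944 genes that reached 1 FPKM in 3 or more of the 12 libraries were fitted as log2(FPKM + 1) with limma 3.58.1 (R 4.3.3), 1 mean per group, variance trend, 8 residual degrees of freedom; p-values were Benjamini-Hochberg adjusted over these genes at 0.05. Such changes understate those of genes near 1 FPKM. The members and lists were chosen with earlier results of these data known. Genes given by library were, per class, the most abundant and those with the highest and lowest change, paralogues, and genes that differed by 0.3 or more between single drugs. Other members were added by means or changes. Gene positions, GC content and longest transcripts came from GENCODE release 29. The correction fitted each library's deviation with natural splines (5 degrees of freedom) of GC percent and log2 length, for 11761 genes. Same-numbered libraries had a median residual correlation of -0.001, with 1 of 18 pairs over 0.1, at 0.165. The labels do not say whether they shared a culture or day, and 3 libraries a group cannot settle it. Alternatives were a pseudocount of 0.1, no filter, TPM and median-of-ratios scaling, the correction, a replicate block, only the groups compared, and each library left out. The fit was tested on simulated data.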

Additional observations from a re-analysis of the deposited data

Results flagged for a closer look

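The entry with no gene name, which belongs to no comparison, averaged 11.2 FPKM in the combination, with 11.2, 10.8 and 11.6 FPKM there, 3.81, 2.84 and 2.89 with ceritinib, 3.03, 2.99 and 2.42 with crenolanib, and 3, 2.68 and 2.61 in DMSO; it was singled out because it stands above the control libraries.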

How the results depend on the processing

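Class medians of COPI, COPII, KDEL receptors, YIF and YIPF proteins and cargo receptors in the combination against DMSO kept their sign under every alternative run, and those of p24 receptors and SNAREs did not; the cause was not tested. After the GC and length correction, with or without a replicate block, the change of these genes in the combination against DMSO turned positive: COPG2 0.094, ARCN1 0.07, SAR1A 0.61, SAR1B 0.75, SEC24A 0.74, SEC24D 0.42, TMED2 0.15, TMED5 0.20, YIPF4 1.00, YIPF6 0.26, SEC22A 0.28, SEC22C 0.48, BET1 0.57 and GOSR1 0.17. Median-of-ratios scaling turned SAR1A to 0.037 and SEC24D to 0.14, and the TPM scale turned ERGIC1 to -0.14. Genes called lower in the combination after the correction numbered 4 against DMSO, 5 against ceritinib (4 with the replicate block), 4 against crenolanib and 6 in the interaction. Over all 11761 genes 4795, 4674, 4669 and 4112 were called lower there, in the same order. For ceritinib against DMSO the TPM scale gave 8 higher and 8 lower and the correction 5 lower (2356 of all 11761 genes after the correction). For crenolanib against DMSO the TPM scale gave 9 higher. For ceritinib against crenolanib the TPM scale gave 4 higher and 15 lower, median-of-ratios scaling 8 lower, and the correction 13 lower (11 with the replicate block). Class medians in the combination against DMSO, given as TPM scale, median-of-ratios scaling and correction, were 0.43, 0.78 and 0.72 for COPI (0.59 at a pseudocount of 0.1, 0.50 with no filter), 0.11, 0.45 and 0.61 for COPII, -0.084, 0.27 and 0.32 for p24, 1.07, 1.41 and 1.39 for KDEL receptors, 1.13, 1.41 and 0.94 for YIF and YIPF (1.30 at a pseudocount of 0.1), 0.38, 0.73 and 0.49 for cargo receptors, and -0.40, -0.06 and 0.51 for SNAREs. With each library left out in turn, ceritinib against DMSO gave 1 to 4 lower, crenolanib against DMSO 8 to 15 higher and 1 to 4 lower, and ceritinib against crenolanib 4 to 8 higher and 2 to 5 lower; the COPI median ran over 0.56 to 0.59 and the COPII median over 0.24 to 0.28. The replicate block without the correction gave 34 higher and 18 lower in the combination against DMSO. Of single-gene values under alternatives, 3289 kept direction and call, 189 lost the call, 8 gained it and 31 turned.
With 3 libraries a group, p-values of the main fit set a change against 1 spread per gene. That spread was pooled within groups over all 12 libraries and moderated by the variance trend across genes. The estimated depth bears on counting error only and entered no fit. Genes near 1 FPKM, such as YIPF4 and BET1, have changes made smaller by the pseudocount. The correction would also remove a trend with GC or length that the drugs caused. Coordinates of overlapping genes and pseudogenes come from GENCODE release 29, which may not be the authors' annotation.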

Other observations

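Beyond the Golgi, 25 of 26 listed genes of the coats that act there (clathrin, adaptor complexes, retromer and ARF exchange factors) could be tested, and 12 were higher and 12 lower in the combination than in DMSO (36.8% and 50.9% of all genes tested), with a median log2 change of -0.11. After the GC and length correction 9 were higher and 10 lower (39.5% and 40.8% of all genes), with a median of 0.02. CLTC, the clathrin heavy chain, averaged 12.5 FPKM in the combination, 35.1 with ceritinib, 35.0 with crenolanib and 33.5 in DMSO, a change of -1.36 (-0.43 after the correction). AP3M1, of the adaptor AP-3, averaged 4.61 FPKM in the combination and 15.1 in DMSO (-1.53, and -0.73 after the correction), and ARFGEF1, an exchange factor that loads ARF1 with GTP at the Golgi, 1.40 in the combination and 5.62 in DMSO (-1.46, and -0.55 after the correction). Between the single drugs AP1S3, of the adaptor AP-1, averaged 4.40 FPKM with ceritinib and 2.84 with crenolanib (0.49, limma adjusted p = 6.39e-06), and GOLT1B, a Golgi transport protein, 4.52 with ceritinib and 6.44 with crenolanib (-0.43, adjusted p = 7.89e-06).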
